A study of Mus musculus with 23 samples.

Results

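Homing and adhesion receptors, used by blood stem and progenitor cells to find and hold their place in bone marrow, are described here across every gene-expression library of the study. The 7 are Cxcr4, S1pr1, Itga4, Itgb1, Itga6, Selplg and Cd44. The genes were taken by symbol from the feature tables of all 11 gene-expression matrices, and 7 of the 32285 listed genes matched, 1 row for each symbol. The study compared loss of Jarid2, a co-factor of Polycomb repressive complex PRC2, with loss of Ezh2, the catalytic subunit of that complex. Mice carried floxed Jarid2 or floxed Ezh2 alleles with Mx1-Cre, and the treatment label Mx1-Cre was given for every group, Controls included. The Mx1 promoter is interferon-inducible and is active in blood cells and in other tissues. All libraries held KSL marrow cells (c-Kit+ Sca1+ Lineage-), the sorted fraction that contains stem cells and multipotent progenitors. At baseline, untransplanted mice aged 2 months gave 6 libraries. Control, Ezh2 KO and Jarid2 KO each had a male (replicate 1) and a female (replicate 2). In the transplant experiment, 5 libraries held CD45.2 donor KSL cells recovered at 18 weeks from irradiated recipients that had received 500000 donor and as many CD45.1 competitor cells. These comprised 1 Control, 2 Ezh2 KO and 2 Jarid2 KO libraries. The labels do not say whether a library pools mice, so p-values below measure the spread between libraries. The transplant Control and Jarid2 KO libraries held cells of both sexes, and so of more than 1 mouse.

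Homing to the marrow is usually described as a sequence of steps. Cxcr4, a G-protein-coupled receptor, senses the chemokine CXCL12 made by marrow stroma, and S1pr1 senses sphingosine 1-phosphate, which is abundant in blood and draws cells out of tissue. Selplg encodes PSGL-1, the main selectin ligand, on which cells roll along vessel walls. Firm adhesion then uses integrins, which are pairs of an alpha and a beta chain. Itga4 (alpha 4) pairs with Itgb1 (beta 1) to form VLA-4, a receptor for VCAM-1 and fibronectin, and Itga6 (alpha 6) pairs with Itgb1 to form a laminin receptor. Cd44 binds hyaluronan and, in some glycoforms, selectins. Surface protein of these 7 receptors was not measured; every value below is a transcript level in CPM, the unique molecular identifiers (UMIs) of a gene per 1000000 UMIs summed over the kept cells of a library. Because the libraries read 3′ ends, splice forms of Cd44 or Itga6 cannot be told apart.

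In the RefSeq annotation of GRCm38.p6, which matches the mm10 build named in the submitters' processing notes, 3 of the 7 genes lie on chromosome 2. Itga6 spans chr2:71786886-71858427, Itga4 chr2:79255426-79333114 and Cd44 chr2:102811141-102901669. Cxcr4 lies at chr1:128588199-128592299, S1pr1 at chr3:115710433-115715055, Selplg at chr5:113817798-113832528 and Itgb1 at chr8:128685654-128733579. Promoter sequence was at hand for 4 of them (Cxcr4, Itga4, Itgb1 and Cd44). Of these, Cxcr4 and Cd44 are printed because they passed a test between genotypes over all cells, as reported below. Itga6 also passed, but its promoter was not at hand. Each sequence is the 250 bases that the RefSeq promoter table gives before its start on the minus strand, read 5′ to 3′ in the direction of the gene, with CG dinucleotides in capitals. The Cxcr4 window is chr1:128592300-128592549 and the Cd44 window is chr2:102901666-102901915, which overlaps the end of the Cd44 span given above by 4 bases.
Cxcr4: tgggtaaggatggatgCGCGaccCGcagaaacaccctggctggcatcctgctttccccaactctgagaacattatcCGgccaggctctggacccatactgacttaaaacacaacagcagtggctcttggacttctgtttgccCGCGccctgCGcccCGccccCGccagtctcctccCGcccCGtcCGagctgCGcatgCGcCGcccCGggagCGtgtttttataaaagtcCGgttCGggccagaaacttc
Cd44: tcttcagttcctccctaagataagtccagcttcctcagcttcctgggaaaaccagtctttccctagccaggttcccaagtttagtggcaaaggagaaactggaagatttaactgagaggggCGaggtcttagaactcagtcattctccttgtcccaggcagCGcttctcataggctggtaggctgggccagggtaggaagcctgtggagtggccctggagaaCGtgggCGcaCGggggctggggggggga
The Cxcr4 window held 19 CG dinucleotides and was 61.2% G or C, and 80.3% of the 32851 RefSeq promoter windows of the same length held fewer. The Cd44 window held 5 CG dinucleotides at 56.4% G or C, and 44.4% of windows held fewer. Itga4 had 6 and Itgb1 had 21. The motif TATAAA, searched on both strands, occurred in the Cxcr4 window and in none of the other 3, and 12.4% of all windows held it. These counts describe the windows only.

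Of 97066 deposited barcodes, 73310 were kept, 4354 to 9208 per library, with 67629053 to 126527222 UMIs. The mitochondrial limit removed 2.82% to 5.82% of barcodes at baseline and 25.7% to 43.4% after transplantation. The sort markers were present, with Kit at 240.8 to 295.2 CPM at baseline and 124.4 to 158.3 after transplantation and Ly6a, which encodes Sca1, at 49.3 to 73.8 and 19.2 to 33.6. Mature-cell genes were low, with Cd3e at or below 0.298 CPM and Ly6g at or below 0.0234. The stromal ligand of Cxcr4 itself, Cxcl12, stood at 0.237 to 4.75 CPM at baseline and at or below 0.0372 after transplantation. Ezh2 transcript was 193.2 to 208.8 CPM in baseline Control and 147.9 to 162.5 in baseline Ezh2 KO, and 184.8 in transplant Control against 38.8 to 47.1 in transplant Ezh2 KO. Jarid2 transcript was not lower but higher in the libraries labelled Jarid2 KO, at 204.7 to 215.2 CPM against 149.6 to 159.2 in Control at baseline and 57.1 to 57.3 against 38.6 after transplantation. The exons deleted are not given in the labels, and 3′ reads from outside them do not check a deletion; genotype names below are those of the labels. By Xist and Y-linked UMIs, female cells were 59.4% of the library of transplant Control, 48.3% and 49.9% for Jarid2 KO, and 0.0163% and 0.0511% for Ezh2 KO, so the sex mix differed between the transplant groups. Cells with Y-linked and no Xist UMIs numbered 807 in transplant Control and 1393 and 1620 in Jarid2 KO. Each of those libraries thus mixed cells of more than 1 mouse, whereas for Ezh2 KO this cannot be told.

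The first question was how the 7 receptors differ between surface phenotypes of normal and mutant KSL cells. Antibody counts of the baseline cells, which are measured apart from the transcripts, were ranked within each library. They were not scaled for the depth of each cell. A cell was called high above the 60th percentile and low below the 40th. The stem gate was CD150 high, CD48 low and CD135 low, the usual phenotype of long-term stem cells, and held 1126 to 1417 cells per library. The CD150/CD48 gate was high for both proteins, with 675 to 1276 cells. The CD48 gate was CD48 high with CD150 and CD135 low, with 164 to 343 cells, and the CD135 gate was CD135 high and CD150 low, with 1519 to 2191. The phenotypes of the last 3 are those used for multipotent progenitors MPP2, MPP3 and MPP4. By transcript class the stem gate was 64.9% HSC-like cells on average and the CD135 gate 49.4% lymphoid-like. The CD48 gate was 44.5% B-like (23.8% to 70.7%) and 16.2% innate lymphoid or T-like, so it did not bear out a progenitor label and is called here by its antibodies. B-like cells also made up 1.95% to 48.1% of the CD150/CD48 gate. Their part in the gate differences was not tested.

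The stem gate had the highest Itga6 and the lowest Selplg transcript of the 4 gates in each of the 6 libraries, and a Cxcr4 level below every other gate of the same library. Itga6 ranged from 97.3 to 136.2 CPM in the stem gate (median 119.6), from 44.7 to 89.0 in the CD150/CD48 gate (58.5), from 36.5 to 57.7 in the CD135 gate (43.5) and from 20.7 to 63.7 in the CD48 gate (35.6). The stem gate did not overlap the next gate, whereas the other 3 overlapped their neighbours. In the fit with library as a block (edgeR quasi-likelihood test, Benjamini-Hochberg adjusted over 15545 genes), Itga6 was higher in the stem gate by 0.90 ± 0.078, 1.58 ± 0.092 and 1.39 ± 0.079 (log2, ± SE) than in the CD150/CD48, CD48 and CD135 gates. The adjusted p-values of that edgeR test were 7.88e-09, 2.12e-11 and 9.83e-12, and the direction held in 6 of 6 libraries for each. Itgb1, the partner chain, followed the same direction with smaller differences. It ranged from 140.2 to 166.0 CPM in the stem gate, 111.9 to 144.3 in the CD150/CD48 gate, 114.0 to 122.6 in the CD135 gate and 82.6 to 120.7 in the CD48 gate, with each gate overlapping the next. The stem gate was higher by 0.17 ± 0.049, 0.49 ± 0.052 and 0.31 ± 0.049 (log2), with adjusted p-values of 0.00487, 8.44e-08 and 2.35e-05 (edgeR). With the 2 Control libraries alone the first of these was 0.17 with an adjusted p of 0.259.

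Itga4, the other alpha chain, did not follow Itga6. Its level ran from 247.5 to 424.9 CPM in the CD48 gate, above and apart from the CD150/CD48 gate at 196.3 to 232.7, and was 166.0 to 207.4 in the stem gate and 140.0 to 190.3 in the CD135 gate. The stem gate was lower than the CD150/CD48 gate by −0.34 ± 0.099 (adjusted p = 0.00575) and lower than the CD48 gate by −0.90 ± 0.10 (1.56e-07, edgeR), while its difference of 0.12 from the CD135 gate did not pass (0.317).

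**Figure D1:**
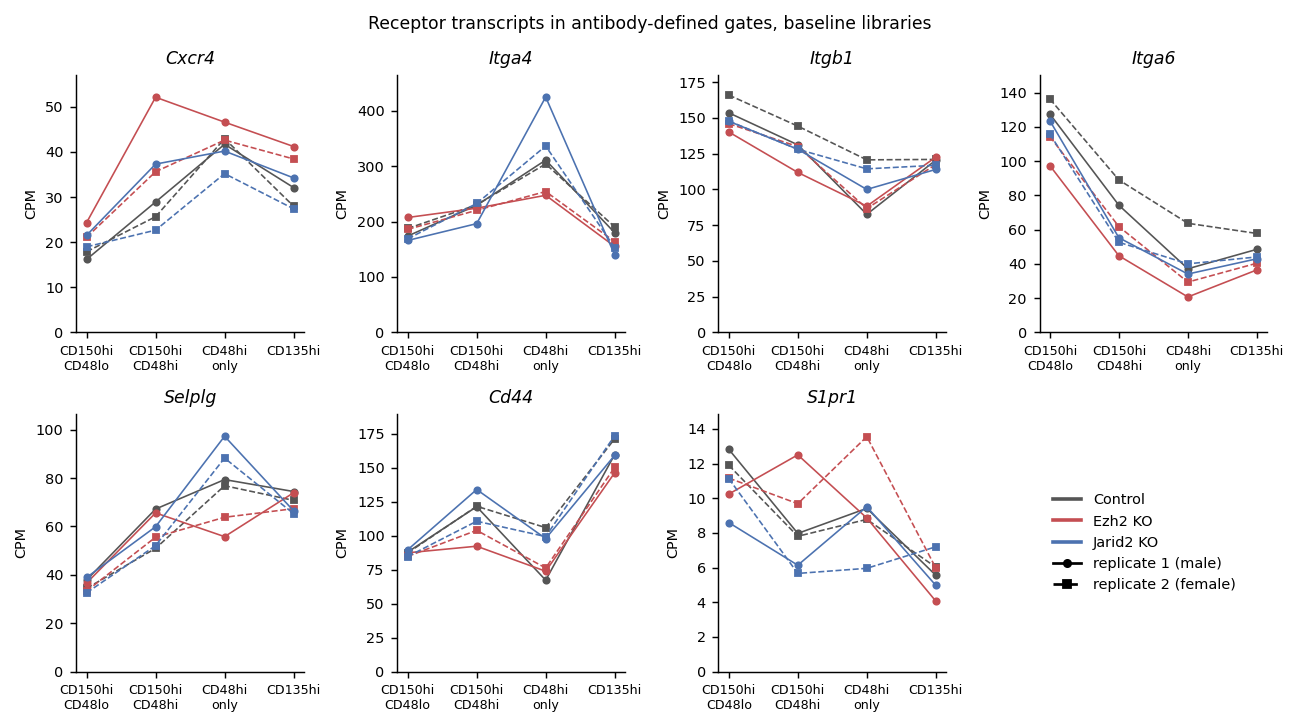
Level of each receptor transcript (CPM, vertical axis from 0) in the 4 antibody-defined gates of the baseline libraries (horizontal axis). Each line joins the gates of 1 library, coloured by genotype, with circles and full lines for replicate 1 and squares and broken lines for replicate 2. Itga6 falls from the stem gate (CD150hi CD48lo) to every other gate in all 6 libraries, and Selplg and Cxcr4 start at their lowest there.

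Cxcr4 ranged from 16.2 to 24.3 CPM in the stem gate (median 20.0), 22.7 to 52.1 in the CD150/CD48 gate (32.3), 27.4 to 41.2 in the CD135 gate (33.2) and 35.2 to 46.6 in the CD48 gate (42.2). Across libraries neighbouring gates overlapped, but within each library the stem gate was the lowest. The stem gate was lower by −0.78 ± 0.091, −1.19 ± 0.10 and −0.77 ± 0.090 (log2) than the CD150/CD48, CD48 and CD135 gates, with adjusted p-values of 4.49e-07, 3.46e-09 and 4.03e-07 (edgeR). Selplg showed the same order with no overlap between the stem gate, at 32.6 to 38.9 CPM, and the others, the lowest of which was 51.0. Its differences were −0.77 ± 0.081, −1.23 ± 0.088 and −1.0 ± 0.080, with adjusted p-values of 1.18e-07, 3.00e-10 and 1.82e-09 (edgeR). On the linear scale Selplg was 1.70-fold, 2.35-fold and 2.0-fold lower in the stem gate.

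Cd44 was highest in the CD135 gate, at 146.2 to 173.5 CPM, with no overlap with the CD150/CD48 gate at 92.2 to 133.9. The stem gate was the least variable for this gene, at 84.7 to 89.6 CPM in the 6 libraries of 3 genotypes, and overlapped the CD48 gate at 67.3 to 105.9. Cd44 was lower in the stem gate by −0.43 ± 0.064 against the CD150/CD48 gate and by −0.91 ± 0.064 against the CD135 gate (adjusted p = 9.06e-06 and 2.43e-10, edgeR), and differed by −0.11 from the CD48 gate (0.181). S1pr1 was the receptor with the fewest counts. It stood at 8.60 to 12.8 CPM in the stem gate and 4.07 to 7.2 in the CD135 gate, which did not overlap, a difference of 0.93 ± 0.17 (adjusted p = 0.000118, edgeR). Against the CD150/CD48 and CD48 gates the S1pr1 differences of 0.35 and 0.11 did not pass (0.0807 and 0.652). In all, 6, 5 and 6 of the 7 receptors passed the threshold of 0.05 in the 3 gate comparisons. At the same threshold 60.6% (31.0% higher, 29.6% lower), 65.5% (34.7%, 30.8%) and 50.6% (26.3%, 24.3%) of all tested genes did, against which the counts are to be read.

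Classes built from transcripts gave a finer account of where each receptor was high at baseline. Receptors and other adhesion genes were left out of the clustering, and classes were named from marker lists. The levels are a description, given without a test, and the order is over the 7 named classes with at least 50 cells in every library. Dendritic-like (12 to 58 cells), erythroid-like (44 to 239) and myeloid-like cells fell short of that number in at least 1 library and are outside the order. Itga6 was highest in megakaryocyte-like cells (median 146.2 CPM over the 6 libraries, range 121.8 to 170.5) and HSC-like cells (123.6, range 114.0 to 141.9), which overlapped. Lymphoid-like cells had 49.5 and B-like cells 13.0 (11.0 to 16.7). Itgb1 was likewise highest in megakaryocyte-like cells (199.4, range 189.7 to 209.6) and lowest in B-like cells (73.7, range 64.9 to 81.1), and neither overlapped its neighbour among the 7. Megakaryocyte-like cells had the lowest Selplg (17.3, range 12.3 to 22.8), below HSC-like cells (38.2, range 37.3 to 40.5), while innate lymphoid or T-like cells had the highest (189.2, range 138.1 to 232.0). The same class led Itga4, at 778.4 CPM (600.6 to 1473), ahead of B-like cells at 306.7 (266.1 to 342.1), with no overlap. Outside the order, dendritic-like cells had an Itgb1 median of 253.4 CPM (202.4 to 284.4), above that of megakaryocyte-like cells, and an Itga6 median of 7.7 (0 to 18.9).

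Cxcr4 was highest in B-like cells, at a median of 56.2 CPM (47.7 to 72.1), and of the 7 classes the median was lowest in HSC-like cells at 16.4 (13.4 to 26.0). Erythroid-like cells, outside the order, were lower still, at 9.56 CPM (5.88 to 11.8), and dendritic-like cells had 0 to 3 Cxcr4 UMIs per library. Cells in S phase and in G2 or mitosis, at 34.7 and 41.2 CPM, lay between. Lymphoid-like cells carried the most Cd44 (168.6, range 151.0 to 190.1) and B-like cells the least (42.9, range 41.5 to 54.2). S1pr1 was highest in HSC-like cells (14.4, range 10.8 to 16.6), which overlapped B-like cells (13.6, range 8.43 to 22.1). Baseline megakaryocyte-like cells had the lowest S1pr1 median of the 7 (3.17, range 1.99 to 8.1, from as few as 2 UMIs). After transplantation megakaryocyte-like cells had the highest S1pr1 median (9.36, range 7.74 to 12.8), overlapping HSC-like cells (7.79, range 7.43 to 9.73), and myeloid-like cells were near the detection limit, with 2 to 4 S1pr1 UMIs per library. The experiments were clustered apart, and the megakaryocyte-like class was named on 6 markers at baseline and 3 after transplantation. It may thus not be the same cell state in both. The Cxcr4 median after transplantation was lowest in HSC-like cells, at 18.0 CPM (7.78 to 21.3), which overlapped megakaryocyte-like cells (8.77 to 21.4).

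**Figure D2:**
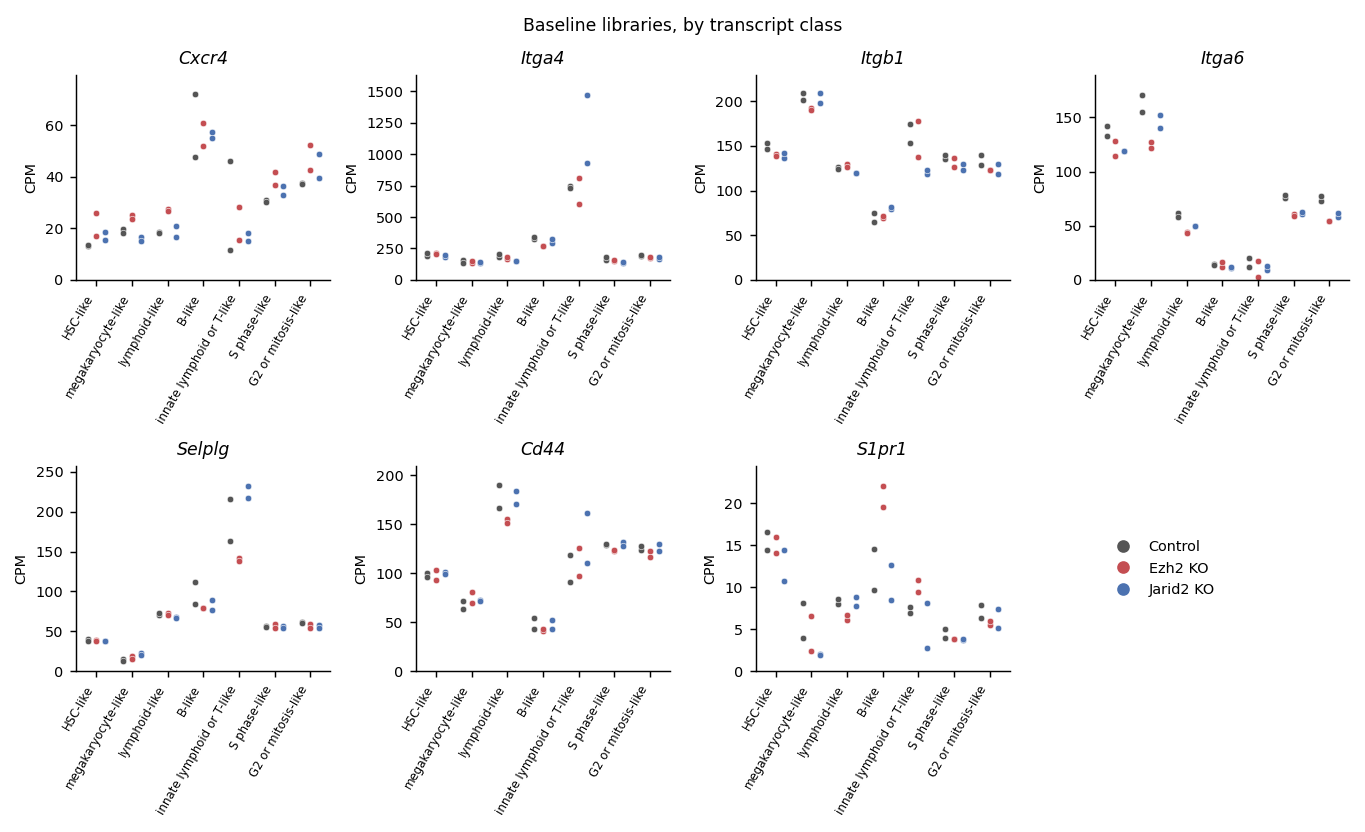
Level of each receptor transcript (CPM, vertical axis from 0) by transcript class (horizontal axis) in the baseline libraries. Each point is 1 library, coloured by genotype. Itga6 is high in HSC-like and megakaryocyte-like cells and near 13 CPM in B-like cells, Cxcr4 is highest in B-like cells, and S1pr1 in B-like cells is above 19 CPM with Ezh2 KO and below 15 elsewhere.

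The second question was whether loss of Ezh2 or Jarid2 changed the receptors in untransplanted mice. Over all kept cells, 2 of the 7 receptors passed the test between Ezh2 KO and Control, 1 higher and 1 lower, against 3.47% of the 18177 genes tested (2.81% higher and 0.655% lower). Cxcr4 stood at 25.7 and 24.4 CPM in Control (replicates 1 and 2), 41.0 and 32.3 with Ezh2 KO, and 30.6 and 24.4 with Jarid2 KO. Both Ezh2 KO libraries were above the other 4. Cxcr4 was 1.5-fold higher in Ezh2 KO than in Control (log2 0.58 ± 0.082, adjusted p = 0.0379, edgeR) and lower in Jarid2 KO than in Ezh2 KO (−0.44 ± 0.082, adjusted p = 0.0484, edgeR), the 1 receptor called there against 5.91% of genes (1.49% higher and 4.42% lower). Itga6 stood at 77.4 and 85.9 CPM in Control, 51.5 and 62.2 with Ezh2 KO, and 66.4 and 65.0 with Jarid2 KO. The 3 genotypes did not overlap, with Control highest and Ezh2 KO lowest. Itga6 was 1.40-fold lower in Ezh2 KO than in Control (−0.48 ± 0.071, adjusted p = 0.0399, edgeR), and its difference of 0.19 ± 0.071 between Jarid2 KO and Ezh2 KO did not pass (0.169). In a sum over all cells, fewer cells of a type and less RNA per cell cannot be told apart.

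These baseline calls were lost when some single libraries were left out and when the model was changed. A fit with a library left out has fewer libraries to estimate the spread from. A lost call there can reflect lower power as well as dependence on that library, and the log2 values kept their direction. The Cxcr4 difference between Ezh2 KO and Control was 0.45 without Control replicate 1 (adjusted p = 0.0626, edgeR), 0.50 without Ezh2 KO replicate 1 (0.107) and 0.60 without the sex term (0.181). For Itga6 the values were −0.50 without Control replicate 1 (0.07), −0.45 without Control replicate 2 (0.112), −0.40 without Ezh2 KO replicate 1 (0.106) and −0.48 without the sex term (0.13). The call on Cxcr4 between Jarid2 KO and Ezh2 KO was lost when any one of those 4 libraries was left out, at −0.35 to −0.52 with adjusted p from 0.0543 to 0.22 (edgeR). It was also lost without the sex term (−0.44, adjusted p = 0.225) and without B-like cells (−0.33, 0.147). B-like cells, with the highest Cxcr4 median of any class and an Itga6 median of 13.0 CPM, made up 21.1% and 11.7% of Ezh2 KO cells against 6.4% and 2.18% in Control and 2.82% and 3.12% in Jarid2 KO. The summed level of 8 B cell marker genes moved with them, at 1578 to 2940 CPM in Ezh2 KO against 308.6 to 1032 in Control and 436.3 to 445.5 in Jarid2 KO. Without B-like cells, Ezh2 KO differed from Control by 0.50 ± 0.082 in Cxcr4 (adjusted p = 0.0912, edgeR) and by −0.38 ± 0.054 in Itga6 (0.0808). The sum of 8 genes of G2 and mitosis was 1149 to 1409 CPM in Ezh2 KO and 852 to 969.9 in Control. The share of cells in that class did not follow, at 13.3% and 14.7% in Ezh2 KO against 13.8% and 13.9% in Control. S phase-like cells made up 14.6% and 14.8% in Ezh2 KO against 17.1% and 16.8% in Control. Markers of the 2 classes with the highest Itga6 were lower in Ezh2 KO, with 10 HSC markers at 1488 to 1694 CPM against 1795 to 1890 in Control and 2053 to 2149 in Jarid2 KO. The sum of 8 megakaryocyte markers was 156.8 to 195.0 CPM in Ezh2 KO, 208.4 to 311.2 in Control and 203.6 to 231.5 in Jarid2 KO. HSC-like cells made up 11.8% and 15.6% of Ezh2 KO cells against 18.7% and 16.9% in Control. The part of these markers in the result was not tested.

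The other 5 receptors did not pass in any of the 3 baseline comparisons. Itga4 stood at 200.2 and 208.7 CPM in Control, 199.4 and 199.8 with Ezh2 KO, and 183.2 and 196.0 with Jarid2 KO, and its log2 differences lay within 0.10 of 0. Itgb1 was 130.3 and 140.0 CPM in Control, 120.4 and 123.3 with Ezh2 KO, and 124.2 and 127.3 with Jarid2 KO. Selplg spanned 55.3 to 63.5 CPM over all 6 libraries and the genotypes overlapped. Cd44 was 124.2 and 131.2 CPM in Control, 111.7 and 115.3 with Ezh2 KO, and 132.3 and 130.2 with Jarid2 KO. Its lowest pair was Ezh2 KO, and the Cd44 difference between Jarid2 KO and Ezh2 KO was 0.19 ± 0.046 (adjusted p = 0.0813, edgeR). S1pr1 was 8.84 and 8.79 CPM in Control, 8.99 and 9.66 with Ezh2 KO, and 6.87 and 8.41 with Jarid2 KO, and the lowest adjusted p was 0.123. Between Jarid2 KO and Control none of the 7 passed (edgeR), against 0.033% of all genes, all of those higher; 1 of the 7 (Itga6, −0.29 ± 0.071, adjusted p = 0.303) had an unadjusted p under 0.05 and DESeq2 called none. The 3 comparisons share libraries, so their values are not independent.

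**Figure D3:**
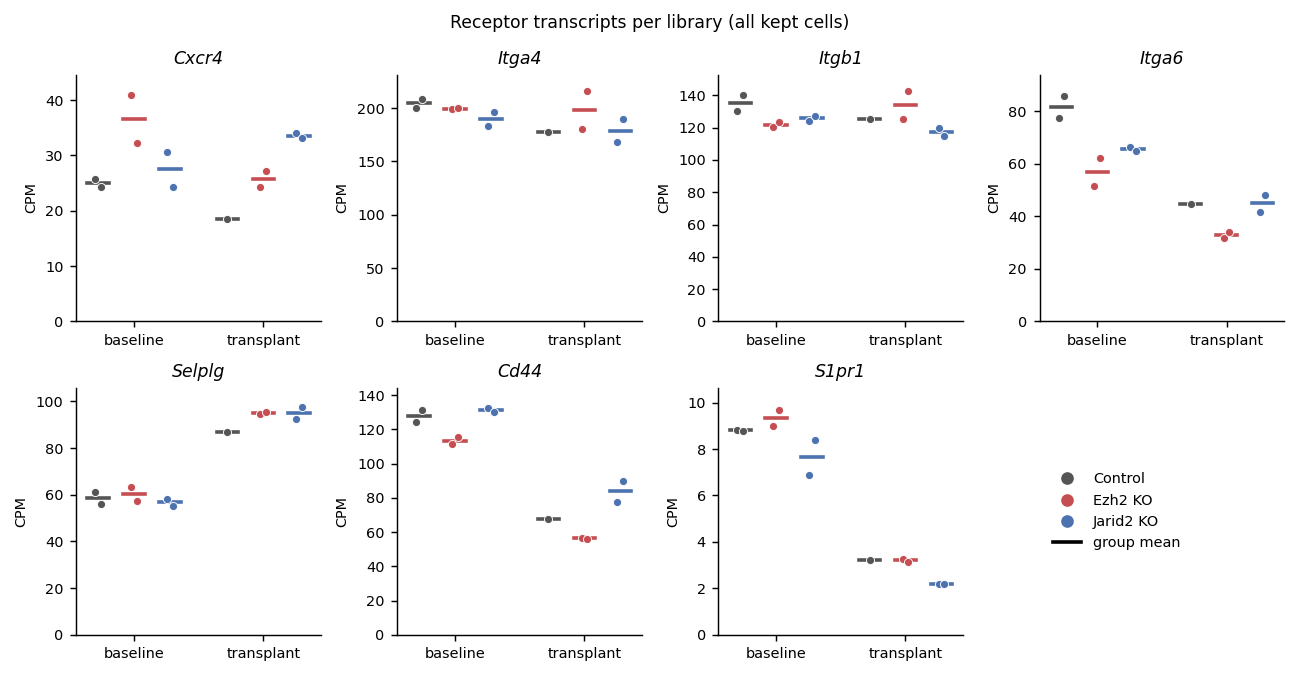
Level of each receptor transcript (CPM over all kept cells, vertical axis from 0) in the 11 libraries, grouped by experiment and coloured by genotype. Points are libraries and bars are group means. Cxcr4 is highest in Ezh2 KO at baseline (32.3 and 41.0 CPM) and in Jarid2 KO after transplantation (33.1 and 34.0 CPM), and Itga6 is lowest in Ezh2 KO in both experiments.

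Cells were ranked for the gates within each library, while the median CD48 antibody count differed by genotype. It was 840 and 628 in Control, 1518 and 1146 with Ezh2 KO, and 538 and 422 with Jarid2 KO (replicates 1 and 2). High and low CD48 are thus not the same count in each genotype, and what this did to the tests was not tested. Within the antibody gates, 3, 1 and 4 of 28 receptor-by-gate tests passed for Ezh2 KO against Control, Jarid2 KO against Control and Jarid2 KO against Ezh2 KO. Of all gene-by-gate tests 1.12% (0.939% higher, 0.177% lower), 0.435% (0.227% and 0.207%) and 3.6% (1.36% and 2.24%) passed. DESeq2 called 3, 1 and 0 of the 28 receptor tests, so no gate call between the knockouts held with it. None of the receptor calls was in the stem gate (edgeR), where few genes were called at all. Of 14651 genes tested in that gate, 49 were higher and 3 lower in Ezh2 KO than in Control. Against Control, 1 was higher and 0 lower in Jarid2 KO, and against Ezh2 KO 15 were higher and 75 lower in Jarid2 KO. There Cxcr4 was 16.2 and 17.9 CPM in Control, 24.3 and 21.1 with Ezh2 KO, and 21.5 and 19.0 with Jarid2 KO. Control was the lowest group, but the difference of 0.47 ± 0.12 between Ezh2 KO and Control had an adjusted p of 0.275 (edgeR). In the CD135 gate Cxcr4 was 32.1 and 28.0 CPM in Control, 41.2 and 38.4 with Ezh2 KO, and 34.2 and 27.4 with Jarid2 KO, and Ezh2 KO was above both other groups by 0.44 ± 0.071 and 0.39 ± 0.071 (adjusted p = 0.031 and 0.0272, edgeR). B-like cells made up 0.322% to 1.51% of that gate. Itga6 in the CD135 gate was 48.5 and 57.7 CPM in Control, 36.5 and 40.4 with Ezh2 KO, and 43.0 and 44.0 with Jarid2 KO. Ezh2 KO was the lowest, −0.44 ± 0.069 against Control (adjusted p = 0.0276, edgeR). Itga4 there was 179.9 and 190.3 CPM in Control, 155.2 and 163.8 with Ezh2 KO, and 140.0 and 152.9 with Jarid2 KO, and Jarid2 KO was below Control by −0.33 ± 0.054 (adjusted p = 0.0349, edgeR). Leaving out any library of either compared genotype lost the Cxcr4 and Itga6 calls against Control and the Itga4 call (adjusted p = 0.0606 to 0.24, edgeR). Cxcr4 between the knockouts became −0.30 without Jarid2 KO replicate 2 (0.137) and −0.31 without Ezh2 KO replicate 2 (0.185).

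The remaining gate calls were in the 2 gates in which the share of B-like or of innate lymphoid or T-like cells moved with genotype. B-like cells made up 12.4% and 1.95% of the CD150/CD48 gate in Control, 48.1% and 22.9% with Ezh2 KO, and 6.44% and 6.4% with Jarid2 KO. Innate lymphoid or T-like cells, the class with the highest Itga4 and Selplg, made up 6.43% and 9.91% of the CD48 gate in Control, 0% and 4.92% with Ezh2 KO, and 37.4% and 38.5% with Jarid2 KO. Their part in the calls was not tested. In the CD150/CD48 gate Cxcr4 was 28.9 and 25.6 CPM in Control, 52.1 and 35.6 with Ezh2 KO, and 37.3 and 22.7 with Jarid2 KO, and Ezh2 KO exceeded Control by 0.72 ± 0.13 (adjusted p = 0.0496, edgeR). S1pr1 in the same gate was 7.97 and 7.81 CPM in Control, 12.5 and 9.68 with Ezh2 KO, and 6.14 and 5.67 with Jarid2 KO, with Jarid2 KO below Ezh2 KO by −0.91 ± 0.18 (0.0447). In the CD48 gate, Jarid2 KO was above Ezh2 KO in Itga4 (424.9 and 336.5 against 247.5 and 254.3 CPM, 0.52 ± 0.13, adjusted p = 0.043, edgeR) and in Selplg (97.3 and 88.3 against 55.8 and 63.8 CPM, 0.56 ± 0.14, 0.0471). All 8 gate calls were lost without the sex term, with adjusted p from 0.0691 to 0.44 (edgeR), and each was lost when at least 2 of the libraries it compared were left out in turn. The S1pr1 call and the 2 calls of the CD48 gate were lost without any one Ezh2 KO or Jarid2 KO library. S1pr1 then ran from −1.11 to −0.71 (adjusted p = 0.0568 to 0.131, edgeR), Itga4 from 0.36 to 0.67 (0.102 to 0.5) and Selplg from 0.39 to 0.72 (0.136 to 0.377). The Cxcr4 call of the CD150/CD48 gate was lost without Control replicate 1 (0.48, adjusted p = 0.224) or either Ezh2 KO library (0.62 and 0.82, 0.111 and 0.0792).

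Transcript classes, added as a further split after the gates had been seen, held 6, 3 and 4 calls in 54 receptor-by-class tests, in the same 3 comparisons. Of all gene-by-class tests 1.83% (1.41% higher, 0.426% lower), 0.768% (0.301%, 0.467%) and 2.92% (0.783%, 2.14%) passed. In lymphoid-like cells Cxcr4 was 18.5 and 18.4 CPM in Control, 27.4 and 26.9 with Ezh2 KO, and 20.8 and 16.6 with Jarid2 KO. Both Ezh2 KO libraries were the highest, by 0.59 ± 0.10 over Control (adjusted p = 0.0211, edgeR) and, read the other way, Jarid2 KO was lower by −0.53 ± 0.098 (0.0129). Itga6 in the same class was 62.2 and 58.2 CPM in Control, 44.4 and 43.6 with Ezh2 KO, and 49.5 and 49.5 with Jarid2 KO, a difference of −0.44 ± 0.066 between Ezh2 KO and Control (0.00973). Without Control replicate 1 the first Cxcr4 value was 0.47 (0.19) and the Itga6 value −0.41 (0.073), and the second Cxcr4 value was −0.39 without Jarid2 KO replicate 2 (0.213) and −0.46 without Ezh2 KO replicate 2 (0.0554). Itga6 was also lower in Ezh2 KO than in Control in S phase (−0.35 ± 0.057, adjusted p = 0.0183, edgeR) and in G2 or mitosis (−0.42 ± 0.059, 0.0143). The S phase value was −0.31 without Control replicate 2 (0.0883), and the G2 value −0.43 without Jarid2 KO replicate 1 (0.0554) and −0.38 without Ezh2 KO replicate 2 (0.0559). Cxcr4 in S phase was higher by 0.38 ± 0.069 in Ezh2 KO (adjusted p = 0.0281, edgeR), against 0.32 without Control replicate 1 (0.182). In HSC-like cells the Cxcr4 levels were 13.4 and 13.5 CPM in Control, 26.0 and 17.2 with Ezh2 KO, and 18.7 and 15.6 with Jarid2 KO, which did not pass (0.69, adjusted p = 0.0825), and in B-like cells the differences between Ezh2 KO and Control were 0.086 for Cxcr4 and −0.014 for Itga6 (0.807 and 0.988).

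S1pr1 differed within B-like cells. It was 9.71 and 14.5 CPM in Control, 19.6 and 22.1 with Ezh2 KO, and 8.43 and 12.7 with Jarid2 KO, and both Ezh2 KO libraries were above the other 4. Ezh2 KO was 1.90-fold higher than Control (0.93 ± 0.18, adjusted p = 0.00498, edgeR), which became 0.73 without Control replicate 1 (0.167) and 0.68 without Ezh2 KO replicate 1 (0.0941). Jarid2 KO was lower than Ezh2 KO by −1.04 ± 0.19 (adjusted p = 0.00381, edgeR), and this held when each of the 6 libraries was left out. The counts behind it were small in Control and Jarid2 KO, at 26 to 57 S1pr1 UMIs per library. The B-like class joined clusters of 306, 160 and 133 Control cells, with median UMIs per cell of 14989, 10892 and 4272. Whether their mix differed by genotype, and its part in the S1pr1 differences, was not tested. Many genes were called in B-like cells, against which the S1pr1 calls are to be read. Of 11547 genes tested in that class, 843 were higher and 230 lower in Ezh2 KO than in Control. Between the knockouts 242 were higher and 815 lower in Jarid2 KO. In innate lymphoid or T-like cells Itga4 was 748.4 and 734.7 CPM in Control, 808.4 and 600.6 with Ezh2 KO, and 1473 and 932.2 with Jarid2 KO. Jarid2 KO exceeded Ezh2 KO by 0.77 ± 0.17 (adjusted p = 0.0108, edgeR), against 0.60 without Jarid2 KO replicate 1 (0.225), 0.94 without replicate 2 (0.0643) and 0.73 without Ezh2 KO replicate 2 (0.073). Selplg in the same class was 162.7 and 215.8 CPM in Control, 142.5 and 138.1 with Ezh2 KO, and 232.0 and 217.6 with Jarid2 KO, a difference of 0.70 ± 0.17 between the knockouts (0.0249). It was lost without either Jarid2 KO library (0.62 and 0.79, adjusted p = 0.399 and 0.331) or Ezh2 KO replicate 2 (0.61, 0.188). The class held 82 to 309 cells per library, 1.55% and 1.04% of Control cells, 1.42% and 1.84% with Ezh2 KO, and 3.75% and 4.38% with Jarid2 KO. It joined unlike clusters. Stab2, Il1rl1 and Skap1 were among the top genes of one (117 Control cells), and Ncr1, Xcl1 and Klrk1 among those of the other (69 Control cells). The part of this mix in the Itga4 and Selplg differences was not tested. Lower calls in Jarid2 KO against Control were Itga6 in S phase cells (−0.31 ± 0.058, adjusted p = 0.0406, edgeR), lost without any one of those 4 libraries (−0.35 to −0.28, adjusted p = 0.0557 to 0.234), and Itga4 in lymphoid-like (−0.33 ± 0.058, 0.0177) and S phase cells (−0.30 ± 0.055, 0.0377), and both calls were lost on leaving out either Jarid2 KO library or Control replicate 2, at −0.27 to −0.37 with adjusted p of 0.0826 to 0.314 (edgeR). The S phase call was also lost without Control replicate 1 (−0.34, 0.0501).

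The third question concerned donor cells 18 weeks after transplantation, where Jarid2 KO and Ezh2 KO were compared most directly, with 2 libraries each. Cd44, Itga6 and Cxcr4 were higher in Jarid2 KO than in Ezh2 KO, 3 of 7 receptors against 12% of the 15758 genes tested (4.37% higher and 7.67% lower), and the other 4 did not pass. Cd44 stood at 67.9 CPM in Control, 56.4 and 56.1 with Ezh2 KO, and 77.5 and 90.1 with Jarid2 KO. The 3 groups did not overlap, with Ezh2 KO lowest. Cd44 was 1.52-fold higher in Jarid2 KO than in Ezh2 KO (0.60 ± 0.089, adjusted p = 0.00917, edgeR), and the value was 0.64 without Ezh2 KO replicate 1 (0.0508) and 0.57 without Ezh2 KO replicate 2 (0.077). With male cells alone it was 0.54 ± 0.088 (0.0158), and without lymphoid-like cells 0.56 ± 0.091 (0.0122). Itga6 stood at 44.8 CPM in Control, 31.8 and 33.9 with Ezh2 KO, and 41.6 and 48.3 with Jarid2 KO, so that Ezh2 KO was below both other groups. It was 1.39-fold higher in Jarid2 KO than in Ezh2 KO (0.48 ± 0.079, adjusted p = 0.0135, edgeR), again with the call lost without either Ezh2 KO library (0.47 and 0.49, adjusted p = 0.0874 and 0.0716), and 0.53 ± 0.081 in male cells alone (0.0137). The Control arm was 1 library with no spread of its own, so every test against transplant Control borrows the spread of the knockout libraries. Against that library, Itga6 was 1.44-fold lower in Ezh2 KO (−0.53 ± 0.096, adjusted p = 0.0323, edgeR), 1 of 7 receptors against 4.84% of genes (3.4% higher and 1.44% lower). That value was −0.52 and −0.55 without Ezh2 KO replicates 1 and 2 (0.147 and 0.121) and −0.45 without lymphoid-like cells (0.0676).

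Cxcr4 after transplantation stood at 18.5 CPM in Control, 24.3 and 27.1 with Ezh2 KO, and 34.0 and 33.1 with Jarid2 KO. The groups did not overlap, with Control lowest and Jarid2 KO highest. Jarid2 KO exceeded Ezh2 KO by 1.34-fold (0.42 ± 0.097, adjusted p = 0.041, edgeR). The call was lost without Ezh2 KO replicate 1 (0.38, 0.211), Ezh2 KO replicate 2 (0.47, 0.117) or Jarid2 KO replicate 1 (0.32, 0.0923), and in male cells alone (0.29 ± 0.11, 0.186). The largest receptor difference over all transplant cells, Jarid2 KO against the single Control library (0.81 ± 0.12, 1.76-fold), had an adjusted p of 0.0826 (edgeR). Between Jarid2 KO and Control none of the 7 passed, beside 0.336% of all genes (0.209% higher and 0.127% lower); 2 (Cxcr4 and S1pr1) had an unadjusted p under 0.05 and DESeq2 called 1 (Cxcr4). S1pr1 was 3.22 CPM in Control, 3.27 and 3.13 with Ezh2 KO, and 2.19 and 2.21 with Jarid2 KO. Both Jarid2 KO libraries were the lowest, and the difference of −0.51 ± 0.14 from Ezh2 KO had an adjusted p of 0.0623 (edgeR).

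Itga4 (168.3 to 216.0 CPM) and Selplg (86.8 to 97.7 CPM) overlapped between Ezh2 KO and Jarid2 KO. Itgb1 stood at 125.3 CPM in Control, 125.6 and 142.8 with Ezh2 KO, and 119.5 and 114.7 with Jarid2 KO, a difference of −0.16 ± 0.12 between Jarid2 KO and Ezh2 KO (adjusted p = 0.448, edgeR). Lymphoid-like cells, which had the lowest Itga6 after transplantation (14.9 to 22.7 CPM), made up 20.1% and 18.5% of Ezh2 KO cells, 8.86% and 9.70% of Jarid2 KO cells and 6.09% of Control cells. The summed level of the 8 B cell markers was 420.2 to 544.9 CPM in Ezh2 KO against 78.6 to 97.0 in Jarid2 KO and 46.0 in Control, and its part in the differences was not tested. The 10 HSC markers summed to 639.7 CPM in Control, 409.1 to 446.1 with Ezh2 KO and 455.0 to 544.2 with Jarid2 KO, while HSC-like cells made up 13.3% of the Control library, 16.6% and 20.5% with Ezh2 KO, and 12.9% and 13.9% with Jarid2 KO. Their part in the Itga6 differences was not tested. The share of barcodes over the mitochondrial limit also differed by genotype, at 43.4% in Control, 25.7% and 27.4% with Ezh2 KO, and 36.6% and 37.4% with Jarid2 KO. With no cell filter Jarid2 KO exceeded Ezh2 KO by 0.57 ± 0.090 in Cd44, 0.51 ± 0.082 in Itga6 and 0.53 ± 0.098 in Cxcr4 (adjusted p = 0.0107, 0.0116 and 0.0186, edgeR). Without lymphoid-like cells Jarid2 KO also exceeded Ezh2 KO, by 0.42 ± 0.082 in Itga6 and 0.47 ± 0.10 in Cxcr4 (adjusted p = 0.0241 and 0.0348, edgeR).

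**Figure D4:**
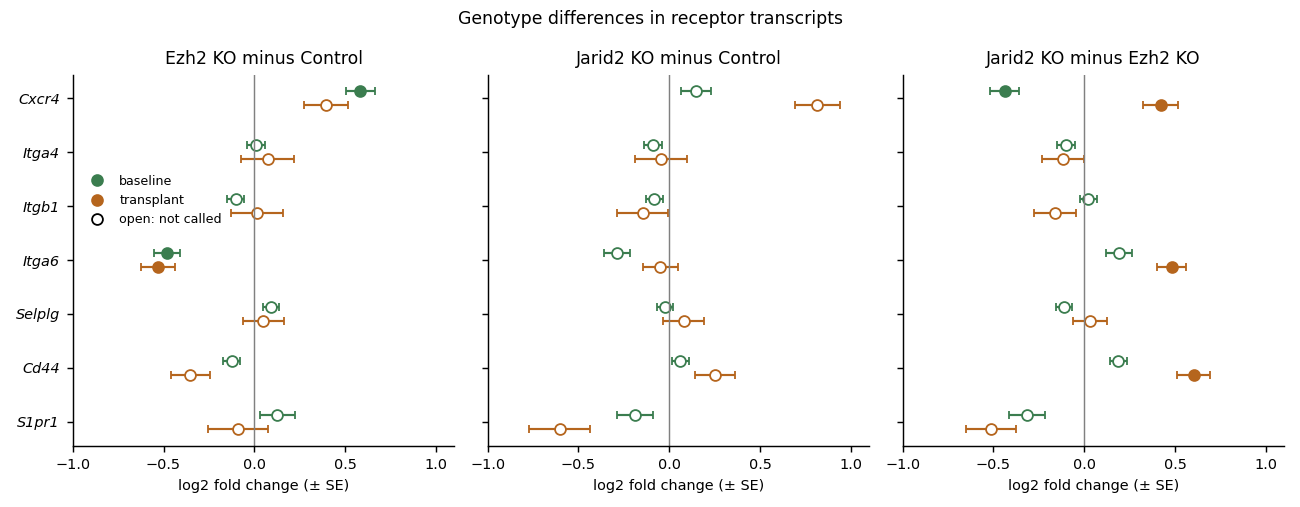
Log2 fold changes of the 7 receptor transcripts over all kept cells (horizontal axis, bars ± SE) for the 3 genotype comparisons, at baseline (green) and after transplantation (brown). Filled points passed an adjusted p of 0.05 and open points did not. In Jarid2 KO minus Ezh2 KO, Cxcr4 lies at −0.44 at baseline and at 0.42 after transplantation, and Cd44 lies at 0.19 and 0.60.

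By transcript class, 9 of 55 receptor-by-class tests passed between Jarid2 KO and Ezh2 KO after transplantation, against 3.72% of all gene-by-class tests (1.36% higher and 2.37% lower), and all 9 were higher in Jarid2 KO. DESeq2 called 6. Among the 8 classes tested was the unnamed remainder, 18.3% to 35.0% of cells from several unlike clusters. Cd44 accounted for 5 of the 9 calls and was higher in Jarid2 KO in 8 of 8 classes, by 0.18 to 1.03. In lymphoid-like cells Cd44 was 111.1 CPM in Control, 62.2 and 63.7 with Ezh2 KO, and 120.3 and 140.8 with Jarid2 KO. Ezh2 KO was far below the other 3 libraries, and Jarid2 KO was 2.05-fold higher than Ezh2 KO (1.03 ± 0.11, adjusted p = 0.00326, edgeR). No transplant cluster was named B-like, so cells of that lineage lay in the other classes. The B cell markers, highest in Ezh2 KO, are given above. At baseline B-like cells had a Cd44 median of 42.9 CPM against 168.6 in lymphoid-like cells. Their part in the Cd44 differences was not tested, and no alternative by class left them out. In HSC-like cells Cd44 was 82.8 CPM in Control, 60.4 and 56.0 with Ezh2 KO, and 98.6 and 119.4 with Jarid2 KO, a 1.85-fold difference (0.88 ± 0.12, 0.00413). These 2 calls held under each of the 16 alternatives tried, with log2 values of 1.00 to 1.12 and 0.81 to 0.97. In S phase cells Cd44 was 50.0 and 49.0 CPM in Ezh2 KO against 74.8 and 92.8 in Jarid2 KO (0.72 ± 0.11, adjusted p = 0.0186, edgeR), and in G2 or mitosis 54.1 and 55.6 against 80.8 and 101.5 (0.68 ± 0.10, 0.00993). Without Ezh2 KO replicates 1 and 2 in turn these became 0.77 and 0.67 (0.404 and 0.513) and 0.68 and 0.66 (0.0951 and 0.114).

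The fifth Cd44 call and an Itga6 call were in the unnamed remainder. Cd44 there was 56.7 and 59.1 CPM in Ezh2 KO against 76.4 and 87.9 in Jarid2 KO (0.48 ± 0.097, adjusted p = 0.042, edgeR) and Itga6 28.5 and 30.0 against 39.9 and 47.4 (0.55 ± 0.093, 0.0213). Both were lost without either Ezh2 KO library (Cd44 0.48 and 0.47, 0.319 and 0.254; Itga6 0.54 and 0.55, 0.209 and 0.129). In myeloid-like cells the Cd44 groups were closer, at 56.4 CPM in Control, 59.2 and 55.9 with Ezh2 KO, and 61.7 and 68.7 with Jarid2 KO, and did not pass (0.18 ± 0.11, adjusted p = 0.451, edgeR). Itga6 was higher in Jarid2 KO in 8 of 8 classes (0.27 to 0.55) and passed in 3. In G2 or mitosis it was 53.0 CPM in Control, 32.0 and 34.0 with Ezh2 KO, and 45.6 and 51.0 with Jarid2 KO (0.50 ± 0.094, adjusted p = 0.0225, edgeR). The Ezh2 KO libraries were the lowest, also by −0.73 ± 0.11 against Control (0.0147), which was lost without either of them (−0.71 and −0.74, 0.108 and 0.107). In myeloid-like cells Itga6 was 29.4 CPM in Control, 25.1 and 28.1 with Ezh2 KO, and 33.8 and 39.9 with Jarid2 KO (0.47 ± 0.11, 0.0358). Cxcr4, also higher in 8 of 8 classes (0.24 to 0.60), passed in myeloid-like cells alone, at 16.5 CPM in Control, 18.5 and 22.6 with Ezh2 KO, and 32.2 and 29.8 with Jarid2 KO (0.60 ± 0.13, adjusted p = 0.0353, edgeR). Without Ezh2 KO replicate 1 the Itga6 differences in G2 and myeloid-like cells and the Cxcr4 difference between the knockouts were 0.48 (0.187), 0.44 (0.255) and 0.51 (0.208). Without Ezh2 KO replicate 2 the 2 Itga6 values were 0.51 (0.15) and 0.50 (0.129). The myeloid-like Itga6 call was also lost without either Jarid2 KO library (0.52 and 0.43, 0.0623 and 0.103), and the Cxcr4 call without Jarid2 KO replicate 1 (0.47, 0.124). Classes of 1 library share their cells' source, so 8 classes in 1 direction are not 8 independent results. Whether the difference is larger in one class than in another was not tested.

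Against the Control library, 2 of 55 receptor-by-class tests passed in Ezh2 KO, beside 1.45% of all tests (0.907% higher and 0.546% lower). None passed in Jarid2 KO (edgeR), beside 0.0906% (0.0646% and 0.026%). In that comparison 11 had an unadjusted p under 0.05 and DESeq2 called none. The 2 were Itga6 in G2 or mitosis, given above, and Cd44 in lymphoid-like cells (−0.87 ± 0.14, adjusted p = 0.0287, edgeR). The lymphoid-like Cd44 value was −0.88 and −0.86 without Ezh2 KO replicates 1 and 2 (0.15 and 0.098) and −0.64 in male cells alone (0.431). Cxcr4 in HSC-like cells was 7.78 CPM in the Control library, from 45 UMIs, 15.01 and 17.99 with Ezh2 KO, and 19.8 and 21.3 with Jarid2 KO. Control was the lowest, but no comparison of that class passed for Cxcr4.

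**Figure D5:**
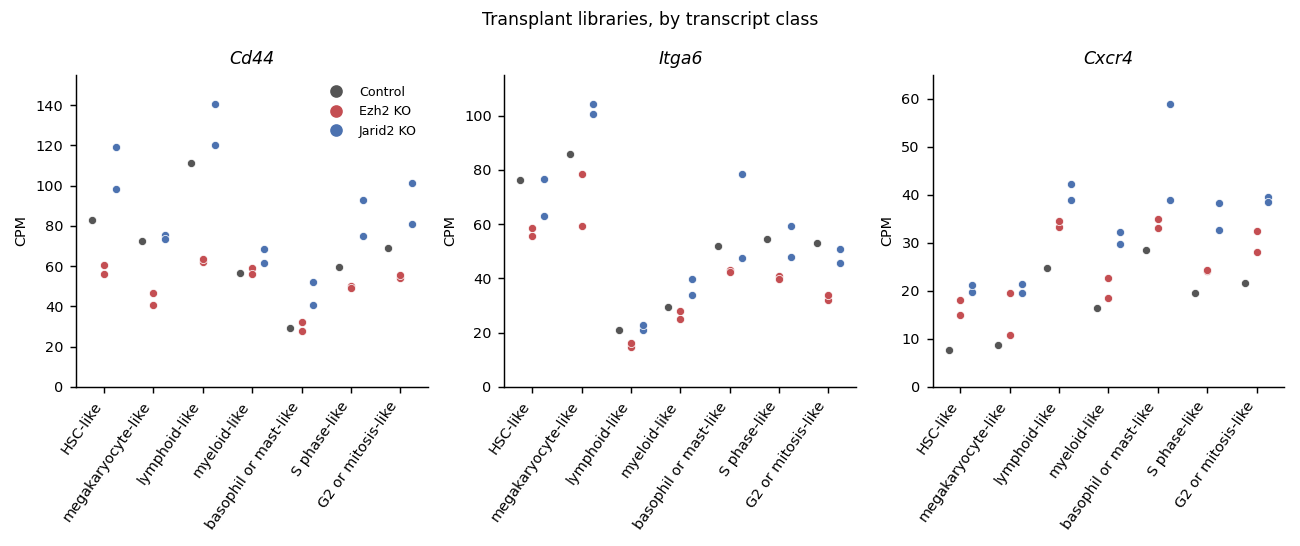
Level of Cd44, Itga6 and Cxcr4 transcript (CPM, vertical axes from 0) by transcript class (horizontal axis) in the transplant libraries, each point 1 library coloured by genotype. Cd44 in lymphoid-like cells is 62.2 and 63.7 CPM in Ezh2 KO and 111.1 to 140.8 in the other 3 libraries, and the Jarid2 KO points lie above the Ezh2 KO points for Cd44 in every class drawn.

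The change of a genotype difference between experiments was tested itself, in 1 fit over the 11 libraries. For Jarid2 KO minus Ezh2 KO, 2 of 7 receptors passed, against 4.64% of 18938 genes (1.79% higher and 2.85% lower). The Cxcr4 difference, negative at baseline and positive after transplantation, shifted by 0.86 ± 0.14 (adjusted p = 0.0155, edgeR). Without baseline Jarid2 KO replicate 1, baseline Jarid2 KO replicate 2 or baseline Ezh2 KO replicate 1 the Cxcr4 shift was 0.92, 0.81 and 0.77 (adjusted p = 0.0618, 0.079 and 0.0756). For Cd44, positive in both experiments, the shift was 0.42 ± 0.096 with an adjusted p of 0.0495 (edgeR), and that call held in 3 of 19 alternatives, over which Cd44 ran from 0.37 to 0.49. For either knockout against Control none of the 7 passed (edgeR), beside 0.734% (0.539% higher, 0.195% lower) and 0.0211% (0.0106% and 0.0106%) of genes; 0 and 1 of them (Cxcr4) had an unadjusted p under 0.05, and DESeq2 called none. The Itga6 difference between Ezh2 KO and Control shifted by −0.044 ± 0.12. Experiment cannot be told apart from the transplantation, the sex mix, the cell loss to the mitochondrial limit or the Cell Ranger version, all of which differed between the experiments.

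A list of 76 other genes of homing and adhesion put the receptors in context. At baseline, 4 rose and 3 fell in Ezh2 KO against Control, none differed between Jarid2 KO and Control, and 2 were higher and 4 lower in Jarid2 KO than in Ezh2 KO. Over all genes 3.47%, 0.033% and 5.91% were called in these 3 comparisons. After transplantation 72 could be tested, of which 7 were higher and 7 lower in Ezh2 KO than in Control, 1 was higher in Jarid2 KO than in Control, and 10 were higher and 10 lower in Jarid2 KO than in Ezh2 KO. The shares over all genes there were 4.84%, 0.336% and 12%. Their median log2 difference was −0.072 in baseline Ezh2 KO minus Control, beside −0.0043 over all genes, and 0.040 in transplant Jarid2 KO minus Ezh2 KO, beside 0.0033. Ccr9, a chemokine receptor of thymus-seeding and gut-homing lymphoid cells, was 13.4 and 4.49 CPM in baseline Control, 34.3 and 13.4 with Ezh2 KO, and 28.8 and 19.7 with Jarid2 KO. After transplantation Ccr9 was 1.61 CPM in Control, 21.4 and 21.6 with Ezh2 KO, and 7.81 and 7.83 with Jarid2 KO, so that Ezh2 KO was highest by 3.65 ± 0.15 over Control (adjusted p = 0.000411, edgeR) and Jarid2 KO was also above Control by 2.23 ± 0.15 (0.01). The lymphoid-like share of the same libraries is given above, and Ccr9 is 1 of the markers that named that class.

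Selp, which encodes P-selectin, the binding partner of the Selplg product, was 36.0 CPM in transplant Control, 12.2 and 15.5 with Ezh2 KO, and 29.6 and 30.7 with Jarid2 KO. Ezh2 KO was the lowest, −1.47 ± 0.13 against Control and with Jarid2 KO above it by 1.16 ± 0.11 (adjusted p = 0.00356 and 0.00236, edgeR). Itgam, the alpha M integrin of myeloid cells, was 14.5 CPM in transplant Control against 6.30 and 6.86 in Ezh2 KO (−1.23 ± 0.11, 0.00344). The summed level of 9 myeloid marker genes was 12260 CPM in transplant Control, 9468 to 10140 with Ezh2 KO and 14290 to 18770 with Jarid2 KO. Myeloid-like cells were 13.2% of the Control library, 10.2% and 9.8% with Ezh2 KO, and 19.3% and 24.2% with Jarid2 KO, and their part in the Itgam difference was not tested. Dpp4, the protease that inactivates CXCL12, was 23.97 CPM in transplant Control, 38.6 and 41.0 with Ezh2 KO, and 18.2 and 23.6 with Jarid2 KO, so Ezh2 KO stood above both (Jarid2 KO minus Ezh2 KO −0.90 ± 0.10, adjusted p = 0.00347, edgeR). At baseline Dpp4 was 66.0 and 52.1 CPM in Control, 68.3 and 54.95 with Ezh2 KO, and 48.3 and 42.7 with Jarid2 KO, where Jarid2 KO was the lowest (−0.46 ± 0.056 against Ezh2 KO, 0.0252). Ptk2, which encodes focal adhesion kinase, a mediator of integrin signalling, was 12.2 and 12.6 CPM in baseline Control, 20.4 and 21.6 with Ezh2 KO, and 13.7 and 16.0 with Jarid2 KO. It was higher in Ezh2 KO than in Control by 0.80 ± 0.073 (adjusted p = 0.0228, edgeR) and lower in Jarid2 KO than in Ezh2 KO (−0.52 ± 0.072, 0.0301). Rasgrp2, an activator of the Rap1 switch that turns integrins on, was 144.7 and 106.5 CPM in baseline Ezh2 KO against 74.7 and 66.5 in Jarid2 KO (−0.84 ± 0.083, 0.0186). St3gal6, a sialyltransferase of selectin ligand synthesis, was 28.4 and 19.4 CPM in baseline Ezh2 KO and 18.0 and 11.6 in Control (0.75 ± 0.12, 0.0482). Between gates, 24, 27 and 29 of the 76 were higher and 31, 36 and 34 lower in the stem gate than in the CD150/CD48, CD48 and CD135 gates. Over all genes 31.0%, 34.7% and 26.3% were higher and 29.6%, 30.8% and 24.3% lower. Cxcl12, low over all baseline cells at 0.237 to 4.75 CPM, was 1 of the genes called higher in the stem gate. Its differences from the CD48 and CD135 gates were 3.89 and 3.71 (log2), and it was not called against the CD150/CD48 gate.

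Genes whose pattern over the 24 gate-by-library sums of the baseline experiment was most like each receptor were ranked by Pearson's r of log2 CPM after subtracting library means, among 6937 genes. These values are a description, since the 24 points share libraries and gates. Itga6 was most like Gng11, Prkg1 and Plscr4 (r of 0.989, 0.988 and 0.986), and Selplg most like Elovl5, Ankrd44 and Snx20 (0.981, 0.972 and 0.970). Cd44 was most like Kcnk12, Camkk2 and Tbc1d5 (0.981, 0.979 and 0.978), Cxcr4 most like Cnn3, Myo1c and Cd37 (0.966, 0.964 and 0.964), and Itgb1 most like Psd3, Stxbp5 and Ocrl (0.971, 0.967 and 0.967). Itga4 was most like Zfp36l1, Skap1 and Erp44 (0.959, 0.951 and 0.947), of which Skap1 is a marker of the innate lymphoid or T-like class. For S1pr1 the highest values were lower, 0.906 for Tbca and 0.877 for both Atp2a3 and H1f0. Among the receptors themselves, Cxcr4 and Selplg (0.910) and Itgb1 and Itga6 (0.911) ran together. The pairs Itga6 and Selplg (−0.876), Cxcr4 and Itga6 (−0.874), Cxcr4 and Itgb1 (−0.827) and Cd44 and S1pr1 (−0.786) ran in opposite directions.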

How the data were processed

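The deposited matrices hold raw UMI counts per gene and cell barcode, which the authors made with Cell Ranger 7.2.0 (baseline) and 6.1.2 (transplant), per the file headers. The submitters' processing notes name Cell Ranger 3.1.0, Seurat 3.0 and the mm10 build for these samples. Intron handling is not given in the sources used here. Antibody counts came from the same baseline matrices; H3K27me3 CUT&Tag samples were not analysed here.

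Barcodes with at least 1000 UMIs, 500 genes and at most 10% mitochondrial UMIs were kept, and the top Scrublet scores in scanpy 1.11.5 were removed as doublets (6.13% to 8.30%, 0.8% per 1000 barcodes). Libraries shared at most 0.39% of barcodes. UMIs were summed per library, gate or class and tested with edgeR 4.0.16 in R 4.3.3 (two-sided quasi-likelihood test, TMM, filterByExpr, Benjamini-Hochberg adjustment over all genes, threshold 0.05). Baseline fits had genotype and sex, transplant fits genotype, gate fits the library as a block, and the fit over both experiments genotype by experiment with sex of the baseline libraries. SE is the absolute log2 fold change divided by the square root of F. With 2 libraries against 2, an exact permutation test cannot go below 0.333. For the single transplant Control, the spread of the knockout libraries was assumed. Replicates differed beyond counting noise (chi-square per degree of freedom 32.6 to 262).

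Classes came from leidenalg 0.10.2 clusters of Control cells (2000 variable genes, 30 components, 15 neighbours, resolution 1), transferred to all other cells. Naming a cluster needed 3 or more markers detected in 10% of its cells at 1.5-fold the level elsewhere. Classes with at least 50 cells in every library were tested. Receptors are always named; of the other homing genes, up to 3 called genes per contrast with the largest change and a mean of at least 10 CPM; and the 3 genes most like each receptor at a mean of at least 20 CPM. S1pr1 in the B-like class and other class results at baseline come from a split added after seeing the data. Alternatives were DESeq2 1.42.0, other scaling, count, cell and gate settings, no sex term, male cells only, cell classes left out and each library left out. Methods were tested on simulated data. The receptors and gene lists were chosen with earlier results of these data known.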

Additional observations from a re-analysis of the deposited data

Results flagged for a closer look

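The Cxcr4 difference between Jarid2 KO and Ezh2 KO differed between the experiments by a test of the difference itself. It was −0.44 at baseline and 0.42 after transplantation (log2), and the shift was 0.864 (adjusted p = 0.0155, edgeR). That call held in 15 of 19 alternatives and was lost without the sex term (0.87, adjusted p = 0.0613) and without baseline Jarid2 KO replicate 1, Jarid2 KO replicate 2 or Ezh2 KO replicate 1 (0.92, 0.81 and 0.77, adjusted p = 0.0618, 0.079 and 0.0756). Male cells alone and the removal of B-like cells were not run for the shift. They ended the call within 1 experiment each, at 0.29 after transplantation (adjusted p = 0.186) and −0.33 at baseline (0.147). All 4 of the compared libraries of each experiment followed that experiment's direction. For Cd44 the same test gave 0.421 (adjusted p = 0.0495, edgeR), from 0.19 at baseline to 0.60 after transplantation, and that call held in 3 of 19 alternatives. Groups of 1 or 2 libraries are too small for a check of outlying samples.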

How the results depend on the processing

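Fits were repeated with 1 choice changed at a time, except that the baseline classes were refitted with a library left out and under no other setting. Some alternatives were chosen after seeing the data. A tally of log2 values took every receptor test over all cells and between gates. Within gates and classes it took only the tests called in the main fit. Gains and sign changes of uncalled tests within gates and classes are thus not in it. Of its 1688 values, 1464 kept their direction and their side of the threshold. A call was lost in 178 and gained in 12, and 34 changed sign, and none of those 34 was a call. Counts below are of receptors called, each beside the count as reported.

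At baseline, Ezh2 KO against Control had 2 receptors called and 0 with no sex term or without B-like cells, and 0 to 2 when a library was left out. Jarid2 KO against Ezh2 KO had 1, and 2 by DESeq2, 0 with no sex term, 0 without B-like cells and 0 to 1 with a library left out. After transplantation, Ezh2 KO against Control had 1, and 0 among genes of at least 10 CPM, 0 without lymphoid-like cells and 0 to 1 with a library left out. Jarid2 KO against Control had 0, and 1 by DESeq2, 1 with no low-count filter and 0 to 1 with a library left out, while Jarid2 KO against Ezh2 KO had 3, and 4 with no low-count filter or no cell filter, 2 among genes of at least 10 CPM, with the strict cell filter or in male cells, and 0 to 3 with a library left out. The shift between experiments of the last contrast had 2, and 1 with RLE scaling, no low-count filter, genes of at least 10 CPM, no cell filter or a strict cell filter (3000 UMIs, 1000 genes, 5% mitochondrial), 0 with no sex term and 0 to 2 with a library left out. Within gates, calls for Ezh2 KO against Control numbered 3, and 5 with no low-count filter or gates at the median, 1 at the 70th and 30th percentile, 0 with no sex term and 0 to 5 with a library left out. Those for Jarid2 KO against Control numbered 1, and 0 with no sex term or median gates and 0 to 2 with a library left out. For Jarid2 KO against Ezh2 KO there were 4, and 0 by DESeq2 or with no sex term, 2 with no cell filter, the strict filter, doublets kept or median gates, 1 at the 70th and 30th percentile and 0 to 6 with a library left out. With a library left out, the 3 gate comparisons had 6 to 7, 5 to 6 and 6 to 6 receptors called. Within baseline classes the calls numbered 6, 3 and 4, and 2 to 8, 0 to 6 and 1 to 5 with a library left out. Within transplant classes the calls numbered 2, 0 and 9, with 1 in male cells for the first, 3 with no low-count filter for the second, 6 (DESeq2, genes of at least 10 CPM, male cells) to 13 (no low-count filter) for the last, and ranges of 1 to 5, 1 to 2 and 2 to 12 with a library left out.

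The values of that tally that changed sign were all small or imprecise, and the cause was not tested. At baseline they were Itga4 in Ezh2 KO against Control (−0.00398 without Control replicate 1, −0.0478 without Ezh2 KO replicate 1, −0.0548 without B-like cells), S1pr1 there (−0.222 without B-like cells), Selplg in Jarid2 KO against Control (0.0141 without Jarid2 KO replicate 1), and, between the knockouts, S1pr1 (0.0261) and Itgb1 (−0.0458) without B-like cells and Itgb1 without Ezh2 KO replicate 2 (−0.016). After transplantation they were, in Ezh2 KO against Control, Itga4 (−0.0282) and Itgb1 (−0.0462) without Ezh2 KO replicate 2, Selplg and Itgb1 with no cell filter (−0.0298 and −0.144) and Selplg without lymphoid-like cells (−0.0399). Others were Itga4 in Jarid2 KO against Control in male cells (0.0296) and Selplg between the knockouts (−0.00396 without Jarid2 KO replicate 1, −0.00122 in male cells). For the shift between experiments they were, in Ezh2 KO against Control, Itga6 (0.0346 without baseline Ezh2 KO replicate 2), Itga4 (−0.0318 without transplant Ezh2 KO replicate 2), Selplg (0.0137 without baseline Ezh2 KO replicate 1) and Itgb1 (−0.0279 with no cell filter). In Jarid2 KO against Control, Itgb1 was 0.0043 without baseline Control replicate 1 and 0.0391 without transplant Jarid2 KO replicate 2. Between the knockouts, Itga4 was 0.0102 by DESeq2, 0.0101 with RLE scaling, 0.00723 with no low-count filter, 0.000283 with no cell filter, 0.0107 with the strict filter, and up to 0.0871 with a library left out. Over the libraries left out, the values that changed sign ran, in the order given, from −0.0478 to 0.068 (Itga4), −0.0621 to 0.0141 (Selplg) and −0.016 to 0.0583 (Itgb1) at baseline. They ran from −0.0282 to 0.16 (Itga4), −0.0462 to 0.068 (Itgb1) and −0.00396 to 0.0652 (Selplg) after transplantation. For the shift they ran from −0.122 to 0.0346 (Itga6), −0.0318 to 0.158 (Itga4), −0.0866 to 0.0137 (Selplg), −0.121 to 0.0391 (Itgb1) and −0.0852 to 0.0871 (Itga4 between the knockouts). Between gates, S1pr1 in the stem against the CD48 gate was −0.00163 without baseline Jarid2 KO replicate 2 (range to 0.241), and Itga4 in the stem against the CD135 gate −0.0685 in Control libraries.

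Replicate numbers of the transplant knockouts did not pair the libraries (r = 0.0251 over 8122 genes between deviations of same-numbered libraries). With the replicate block, Jarid2 KO against Ezh2 KO had 2 receptors called and Cxcr4 stood at 0.41 (adjusted p = 0.0716, edgeR). S1pr1 limits what the depth can show, with 2 to 4 UMIs per library in transplant myeloid-like cells.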
